A study of Mus musculus with 27 samples.

Results

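The Zfp900-series zinc finger genes were taken as every gene of the RNA-Seq count table whose symbol is Zfp9 followed by exactly 2 digits. The rule found 32 genes among the 24065 genes of the table, beside 301 other Zfp genes that carry a number. The libraries came from whole mouse embryos of strain C57BL/6J collected at E8.5, from 3 wild-type (WT) embryos and 3 Dnmt3b-/- littermates. The mutant embryos were homozygous for a catalytically inactive Dnmt3b allele. This allele was made by crossing mice with loxP-flanked catalytic exons to an ACTB-Cre line that deletes in all tissues, and the embryos came from matings between heterozygotes. The deletion was inherited through the germ line and is not restricted to a tissue.

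Most genes of the series encode KRAB zinc finger proteins, a family that has expanded in rodents in tandem clusters. Their C2H2 zinc fingers bind DNA, often in retrotransposons, and their KRAB domain recruits TRIM28, which brings in the histone methyltransferase SETDB1 and heterochromatin proteins. Some family members keep DNA methylation at imprinted loci and at endogenous retroviruses. In Dnmt3b-/- embryos the study found no loss of methylation at imprinted germline regions and a marginal one at intracisternal A-particle elements. A KRAB core, searched as a pattern in the RefSeq coding models, was present in 27 of the 32 genes. The tested genes encoded 6 to 18 canonical C2H2 fingers with a median of 11.

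The genes lay on 11 chromosomes of the mm10 assembly (GRCm38), with 10 on chromosome 17 and 5 each on chromosomes 7 and 8. Members less than 2 Mb apart formed a group of 7 on chromosome 17 (Zfp948, Zfp942, Zfp943, Zfp947, Zfp944, Zfp946 and Zfp945), a group of 3 on chromosome 8 (Zfp930, Zfp964 and Zfp963) and a pair on chromosome 13 (Zfp935 and Zfp934). The other 20 members had no other member nearby. RefSeq names 30 more genes in this series, of which 20 are in the table under an older symbol, so these groups depend on the table's naming. RefSeq gave promoter windows of 300 bases (250 before to 50 after a transcription start, GRCm38.p6) for 29 of the 32 genes. When a gene had several starts, the window lowest in coordinate was counted. These windows held 3 to 24 CpG dinucleotides, the substrate of DNMT3B, with a median of 9 against 7 over the 27025 genes with such a window. Methylation of these windows was not analysed here.

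The windows of the 4 members called different between the genotypes are printed below, 5′ to 3′ on the strand of the gene, with CpG dinucleotides in capitals. Whether these windows bear on the fold changes was not tested. Zfp959 (plus strand) has its window at chr17:55891843-55892142 with 14 CpG, and 36.3% of genes have at least as many. Zfp931 (minus strand) has its window at chr2:178078376-178078675 with 3 CpG (75.8% of genes have at least as many). Zfp936 (plus strand) has its window at chr7:43177340-43177639 with 6 CpG (55.8%). Zfp941 (minus strand) has its window at chr7:140822129-140822428 with 5 CpG (61.2%). The RefSeq gene models of Zfp936 and Zfp959 begin upstream of these windows, at chr7:43114166 and chr17:55891084. Their windows thus do not cover every annotated start, and distances below refer to the start used for the window.
Zfp959: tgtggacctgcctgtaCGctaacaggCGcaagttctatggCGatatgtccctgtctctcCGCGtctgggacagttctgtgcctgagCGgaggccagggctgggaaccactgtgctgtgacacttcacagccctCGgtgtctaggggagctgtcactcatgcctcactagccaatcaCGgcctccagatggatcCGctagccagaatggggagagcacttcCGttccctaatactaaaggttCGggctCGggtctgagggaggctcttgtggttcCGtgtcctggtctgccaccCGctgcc
Zfp931: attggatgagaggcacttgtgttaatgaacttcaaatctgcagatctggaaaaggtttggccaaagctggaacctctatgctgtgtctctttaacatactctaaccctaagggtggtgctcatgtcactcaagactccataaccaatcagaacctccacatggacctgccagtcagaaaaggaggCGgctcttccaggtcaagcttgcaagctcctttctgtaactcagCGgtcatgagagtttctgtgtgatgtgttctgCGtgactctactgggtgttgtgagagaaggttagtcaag
Zfp936: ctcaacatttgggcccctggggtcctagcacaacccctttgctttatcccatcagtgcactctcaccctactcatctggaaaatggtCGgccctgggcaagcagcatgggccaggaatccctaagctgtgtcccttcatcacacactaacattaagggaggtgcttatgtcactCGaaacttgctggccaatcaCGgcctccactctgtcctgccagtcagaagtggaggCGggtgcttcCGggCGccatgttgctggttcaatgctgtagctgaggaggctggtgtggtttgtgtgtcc
Zfp941: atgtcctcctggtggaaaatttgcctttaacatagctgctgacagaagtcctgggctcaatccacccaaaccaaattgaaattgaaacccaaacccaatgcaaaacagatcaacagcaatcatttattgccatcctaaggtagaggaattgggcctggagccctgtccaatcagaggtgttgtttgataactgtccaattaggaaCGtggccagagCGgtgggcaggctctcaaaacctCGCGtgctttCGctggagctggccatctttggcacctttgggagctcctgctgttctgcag
The windows of Zfp959 and Zfp936 shared an uninterrupted run of 17 bases, gccaatcaCGgcctcca, which began 82 and 64 bases before the start, respectively. Searched on both strands, this run was found in 4 of the 27025 windows (0.0148%). Of those 4, 2 are the windows of Zfp959 and Zfp936 from which the run was taken. Another of the 4 was Zfp976, a gene of the series by its RefSeq name that the table lists under an older symbol. The remaining window was that of EU599041, which is not a numbered Zfp gene by its symbol. The run was picked after the windows were seen. It contains the shorter motif CCAAT, which was present on either strand in 19 of the 29 member windows (65.5%) and in 37.8% of all windows. The motif was in the windows of 151 numbered Zfp genes, the members included, so it is not particular to the series. A match describes the letters only and does not establish a binding site.

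The deposited table gave 41489332 to 58470286 counts per library. Dnmt3b itself had 9197, 12195 and 7120 raw counts in WT replicates 1 to 3 and 4068, 3904 and 4196 in Dnmt3b-/- replicates 1 to 3, a log2 fold change of -1.04 ± 0.27 (SE, edgeR quasi-likelihood test, adjusted p = 0.0169). Of the 8 embryo tissue markers checked, all were counted in both genotypes, and their summed level was 92.6 to 99.03 FPKM in WT and 78.6 to 88.9 FPKM in mutants. At an adjusted p below 0.05 (edgeR, counts as deposited), 3 of the 8 were lower, beside 18.1% of all tested genes, and 0 were higher. These were Sox2, Kdr and Nkx2-5, at log2 fold changes of -0.48, -0.46 and -0.79. Sox2 and Kdr were also lower in the second fit described below, where 15.5% of all tested genes were lower. The 8 yolk sac endoderm markers summed to 1088 FPKM in WT replicate 2 and to 103.9 to 388.7 FPKM in the other libraries. The 7 primitive erythroid markers summed to 398.8 FPKM in WT replicate 2, 504.1 in Dnmt3b-/- replicate 3 and 1095 to 2251 in the rest. The part of these tissue differences in the results was not tested beyond leaving each embryo out.

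Nearly all genes of the series were transcribed in the E8.5 embryo, at modest levels. Zfp957 had no count in any of the 6 libraries, where 3 counts would equal 2.377 to 3.501 normalized counts, and was not tested. The other 31 genes passed the minimum of 10 counts per library on average. Levels are given as FPKM over merged RefSeq exons, a scale per length. The WT mean was above 1 FPKM for 28 tested members, with a median of 3.47 FPKM against 4.69 FPKM over all tested genes. Zfp942 was highest in WT at 12.96 ± 1.20 FPKM (SD, n = 3), followed by Zfp961 at 12.58 ± 0.51 and Zfp930 at 12.50 ± 0.73. These 3 levels did not differ beyond their spread. Zfp943 (9.35 ± 0.87) and Zfp934 (9.04 ± 1.59) came next in the order of mean level over all 6 embryos. At the bottom, Zfp936 was at 0.0742 ± 0.0542 FPKM in WT, and its WT replicate 3 rested on 3 reads.

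**Figure D1:**
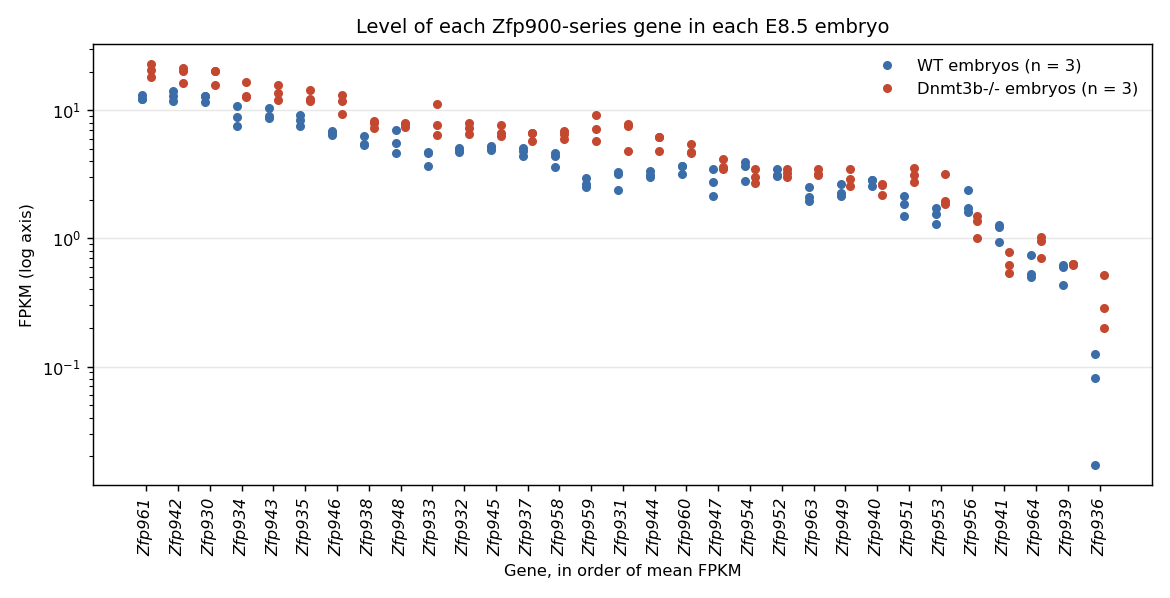
FPKM on a log axis of the 31 tested Zfp900-series genes in each of the 3 WT and 3 Dnmt3b-/- embryos, in order of mean level. Most mutant points sit slightly above the WT points, while those of Zfp941 and Zfp956 sit below them; Zfp957, at 0 in all embryos, is not drawn.

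Because the genes arose by duplication, reads can fit several of them. The share of 75-base exonic windows found only once in the genome was at least 95% for 19 members and under 85% for 10. It was 78.0% for Zfp959, 70.5% for Zfp931, 84.6% for Zfp936 and 100% for Zfp941. It was lowest for Zfp960, at 24.2%. How reads with several positions were counted is not given in the sources used here, so values of the less unique members are uncertain. Exons of Zfp956 overlap those of Zfp783 on the same strand, and exons of Zfp953 overlap those of Zfp595, which makes their counts uncertain too.

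The first question was whether loss of DNMT3B changes the transcript level of these genes. Fitted on the counts as deposited, 20 of the 31 tested members rose and 1 fell at an adjusted p below 0.05, where 17.6% of the 15114 genes tested were higher and 18.1% lower. The members' shares were 64.5% and 3.23%. In whole embryos, a change in the number of cells that transcribe a gene and a change in RNA per cell cannot be told apart. Most changes were small: 17 of the 20 were less than 2-fold, and the median log2 fold change of the 31 members was 0.57 (a fold of 1.48) against -0.03 over all tested genes. With a fold above 2 required as well, 3 members were called higher (Zfp936, Zfp959 and Zfp931) and none lower by edgeR, DESeq2 or limma, where 2.12% of all tested genes were called higher and 3.78% lower. The genotypes did not overlap for 24 members in which all mutants were higher and 2 in which all were lower, against 25.3% and 26.5% of all tested genes. The lowest log2 fold change, that of Zfp941, was -0.82, so the 2-fold limit was not reached at any p.

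This common shift moved with base composition. The exons of the tested members had a median GC content of 39.7%, with a range from 36.0% for Zfp944 and Zfp945 to 54.5% for Zfp956. The median over all tested genes was 50.2%, and 3.58% of these genes were as poor in GC as the median member. Fold changes fell with GC content over the whole table. With all annotated genes divided into 5 bins of equal size by exonic GC, the median log2 fold change was 0.32 in the lowest bin (26.7 to 44.5%) and -0.52 in the highest (55.8 to 71.1%). In that lowest bin, which held 25 of the 31 tested members, 39.8% of genes were higher. Across the 15047 tested genes with an annotation, Pearson's r between exonic GC and log2 fold change was -0.44, and across the 31 members it was -0.47. By ranks, which limit the weight of members far from the rest, Spearman's rho across the members was -0.39. All of these are descriptions across genes of the same 6 libraries.

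**Figure D2:**
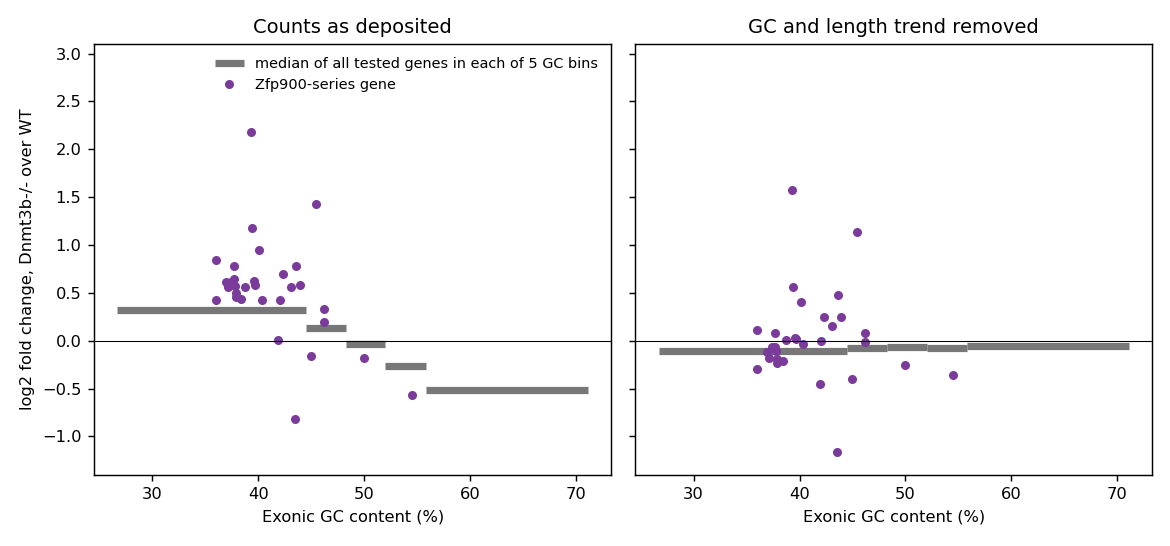
log2 fold change (Dnmt3b-/- over WT) against exonic GC content (%) for the 31 tested Zfp900-series genes (points) and the median of all tested genes in each of 5 GC bins (bars spanning the bin), without and with the GC and length trend removed. On the left the bars descend from 0.32 to -0.52; on the right they lie between -0.11 and -0.06 and the members spread around them.

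A second fit took out of each library the smooth dependence of its counts on GC content and exon length, and in this fit the common shift was gone. The median log2 fold change of the 31 members was -0.01, against -0.08 over all tested genes, with 14 members above 0 and 17 below. Of the members, 3 rose (Zfp959, Zfp951 and Zfp961) and 4 fell (Zfp941, Zfp952, Zfp940 and Zfp945) at an adjusted p below 0.05. Those are 9.68% and 12.9% of the tested members, beside 11% and 15.5% of all tested genes. Only Zfp959 was called higher and only Zfp941 lower with a fold above 2 in this fit, where 1.77% of all tested genes were called higher and 1.32% lower. The genotypes did not overlap in 6 members that were higher and 5 that were lower, against 18.9% and 26.9% of all tested genes. Of the 20 members that rose in the counts as deposited, 3 also rose with the trend removed, 16 no longer passed the threshold, and 1, Zfp945, fell. The log2 fold change dropped in 30 of the 31 members, by a median of 0.56. In Zfp956, the member richest in GC, it instead moved from -0.57 to -0.36. Across the members, Pearson's r with GC content became -0.06 and Spearman's rho 0.08.

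**Figure D3:**
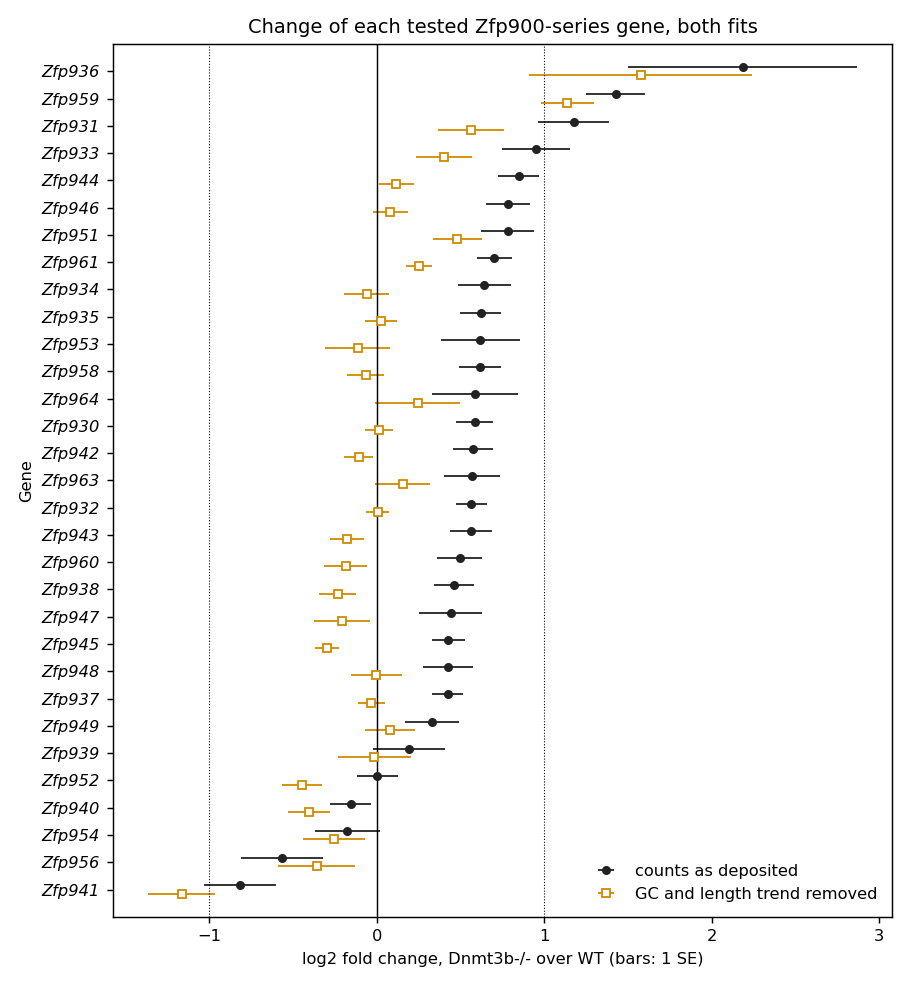
log2 fold change (Dnmt3b-/- over WT, n = 3 each) of the 31 tested Zfp900-series genes with 1 SE, from the counts as deposited (filled circles) and with the GC and length trend removed (open squares); dotted lines mark 2-fold. The circles centre on 0.57 and the squares on -0.01, while Zfp959 stays above 2-fold and Zfp941 is beyond 2-fold lower with the trend removed.

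The shift was present in each mutant embryo and differed between them. The median member lay 0.42, 0.53 and 0.69 log2 units above the WT mean in Dnmt3b-/- replicates 1, 2 and 3, while the WT embryos lay between -0.10 and 0.07. The median gene of the lowest GC bin lay 0.26, 0.32 and 0.38 above the WT mean in the same 3 mutants, and that of the highest GC bin lay at -0.38, -0.53 and -0.62. With the trend removed, the median member lay between -0.07 and 0.06 in all 6 embryos. All 3 mutant libraries were thus on one side of the GC trend and all 3 WT libraries on the other. A change by genotype shared by genes of low GC content and a property of the libraries that varies with GC content cannot be told apart here, and the correction removes both.

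**Figure D4:**
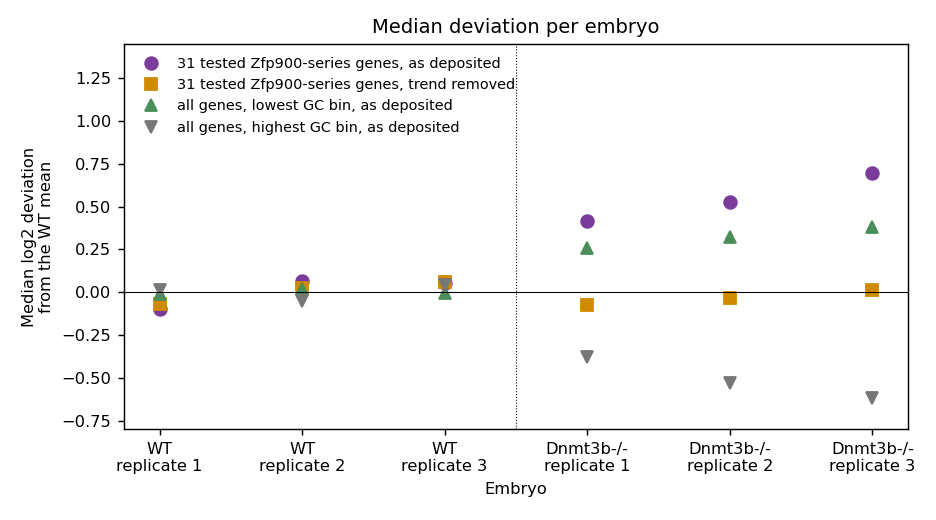
Median log2 deviation from the WT mean in each of the 6 embryos, for the 31 tested Zfp900-series genes without and with the trend removed and for all tested genes in the lowest and highest of the 5 GC bins. The mutants sit at 0.42, 0.53 and 0.69 for the members as deposited and between -0.07 and 0.01 with the trend removed.

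Zfp959, a gene with a KRAB core and 9 C2H2 fingers on chromosome 17, rose in both fits. Its normalized counts were 441.3, 466.2 and 517.7 in WT and 997.0, 1241 and 1598 in mutants. Every mutant was far above every WT embryo. The log2 fold change was 1.43 ± 0.18 (SE, edgeR, adjusted p = 0.00103), a fold of 2.69. In the second fit the embryos stood at 491.0, 505.2 and 576.0 against 942.9, 1117 and 1400 normalized counts. This gave a log2 fold change of 1.14 ± 0.16 (adjusted p = 0.00222), a fold of 2.20. Leaving out Dnmt3b-/- replicate 3, the highest embryo, brought this corrected value to 0.99, just below 2-fold, still at an adjusted p below 0.05. Its exons have a GC content of 45.4%, above the range of the lowest GC bin.

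Zfp941 has a KRAB core and 10 fingers and lies near the end of chromosome 7. It was the only member lower at an adjusted p below 0.05 in both fits. It had 249.6, 334.1 and 323.0 normalized counts in WT and 142.3, 164.6 and 207.4 in the mutants. All mutants were below all WT embryos. The log2 fold change was -0.82 ± 0.22 (adjusted p = 0.0197), which is less than 2-fold. After correction the values were 279.4, 375.3 and 365.9 against 134.3, 146.3 and 173.5, and the gap between the genotypes widened. This gave -1.17 ± 0.20 (adjusted p = 0.00483), a WT level 2.25-fold that of the mutants. Without correction the call at an adjusted p below 0.05 was lost without WT replicate 3, Dnmt3b-/- replicate 1 or Dnmt3b-/- replicate 2; with correction it held when any 1 embryo was left out, at -1.07 to -1.28.

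Zfp931 encodes a short KRAB protein with 7 fingers. Its WT embryos stood at 446.1, 334.1 and 460.2 normalized counts and its mutants at 668.4, 1046 and 1096. Dnmt3b-/- replicate 1 was clearly nearer to WT than the other mutants were. The log2 fold change was 1.18 ± 0.21 (adjusted p = 0.00400) as deposited. The corrected value was 0.56 ± 0.19 (adjusted p = 0.0670), and the lowest mutant (582.0) lay just above the highest WT embryo (566.7). With GC content alone removed, Zfp931 passed at 0.63 (adjusted p = 0.0421).

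Zfp936, with a KRAB core and 11 fingers, was the least transcribed tested member and had the highest fold change. It had 16, 17 and 3 raw reads in WT and 45, 27 and 71 in the mutants. The normalized counts were 12.7, 19.5 and 2.66 against 45.1, 31.5 and 80.5, so the genotypes did not overlap but rested on few reads. The log2 fold change was 2.19 ± 0.68 (adjusted p = 0.0371). Corrected for the trend, it was 1.58 ± 0.66 (adjusted p = 0.119). With 1 embryo left out at a time, the uncorrected call remained in 1 of 6 fits, the one without WT replicate 2, and the adjusted p reached 0.109 without Dnmt3b-/- replicate 3.

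**Figure D5:**
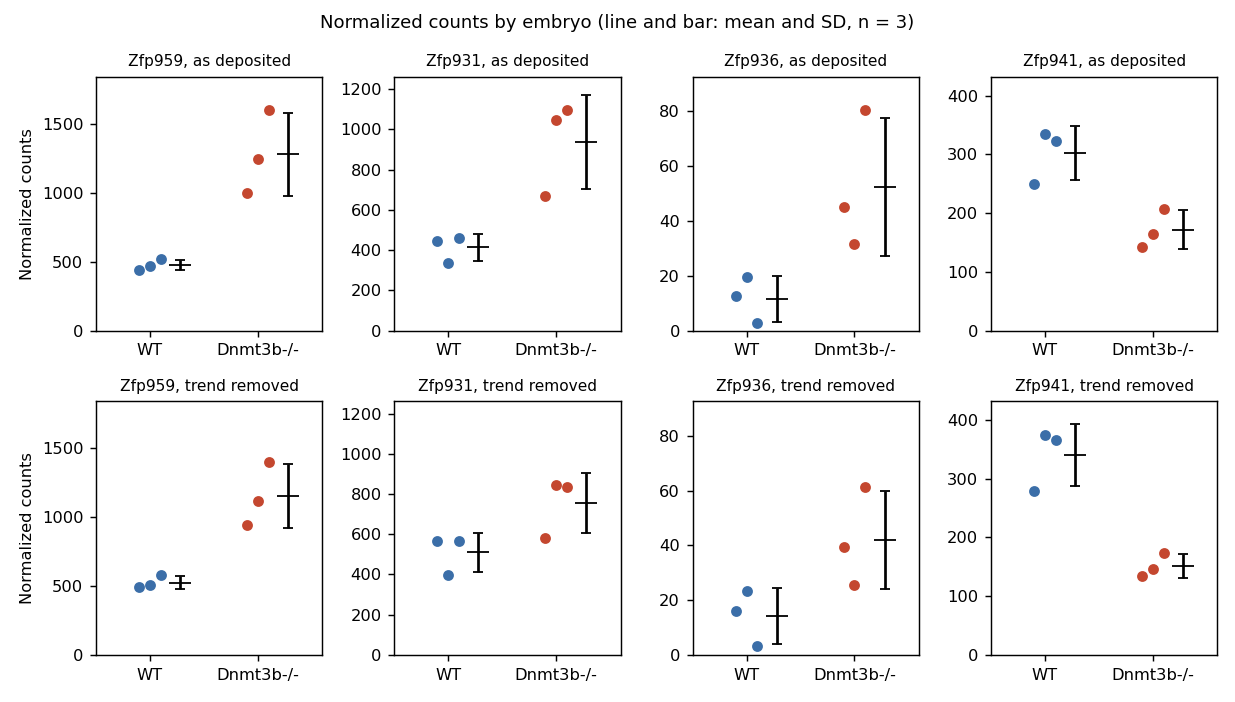
Normalized counts by embryo (linear axes from 0; horizontal line and bar, mean and SD, n = 3) of the 4 members called in either fit, as deposited (top) and with the GC and length trend removed (bottom). The genotypes of Zfp959 (441.3 to 517.7 against 997.0 to 1598) and Zfp941 stay apart in both rows, while those of Zfp931 nearly meet in the lower row.

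The next highest members were Zfp933 and Zfp944. Zfp933, a KRAB gene with 12 fingers, had 1059, 1066 and 836.3 normalized counts in WT and 1468, 1730 and 2530 in the mutants. Its log2 fold change was 0.95 ± 0.20 (adjusted p = 0.00774) as deposited and 0.40 ± 0.17 (adjusted p = 0.114) with the trend removed. It passed 2-fold as deposited when WT replicate 1, WT replicate 2, Dnmt3b-/- replicate 1 or Dnmt3b-/- replicate 2 was left out. Zfp944, one of the 2 members poorest in GC, had 996.0, 962.2 and 1083 normalized counts in WT and 1528, 1976 and 1966 in the mutants. Its rise of 0.85 ± 0.13 (adjusted p = 0.00184) became 0.12 ± 0.11 (adjusted p = 0.452). For Zfp944 the mutants were well clear of WT as deposited and overlapped it with the trend removed.

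Of the 5 lowest members, 4 did not pass an adjusted p below 0.05 in the counts as deposited. Zfp956, which has 6 fingers and no KRAB core match, had 214.7, 319.2 and 228.3 normalized counts in WT and 181.4, 199.6 and 132.6 in the mutants. All of its mutants were below WT, but its log2 fold change of -0.57 ± 0.24 did not pass (adjusted p = 0.103), nor did the corrected one of -0.36 ± 0.23 (adjusted p = 0.281). Zfp954, with 8 fingers, was at -0.18 ± 0.19 (adjusted p = 0.511), and its genotypes overlapped. Zfp940, with 10 fingers, had 805.0, 889.9 and 895.6 against 827.7, 676.9 and 818.3 normalized counts and was at -0.16 ± 0.12 (adjusted p = 0.351). In the corrected fit Zfp940 fell by 0.40 ± 0.12 on the log2 scale (adjusted p = 0.0448). Zfp952, with 9 fingers, had 580.0, 586.8 and 662.0 against 568.2, 655.9 and 609.8 normalized counts, the same level within the spread, and a log2 fold change of 0.00 ± 0.12. Zfp952 also fell in the corrected fit, by 0.45 ± 0.12 (adjusted p = 0.0262). Both of these corrected calls were close to the threshold and remained in 1 of 6 fits with an embryo left out.

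The 5 most abundant members all rose in the counts as deposited. Zfp961, an 11-finger KRAB gene on chromosome 8, had 1616, 1735 and 1624 normalized counts in WT and 2376, 2694 and 3019 in the mutants, clear of each other. Its log2 fold change was 0.70 ± 0.10 (adjusted p = 0.00186). In the corrected fit it was 0.25 ± 0.08 (adjusted p = 0.0463), a rise by a factor of 1.19 that remained past the threshold in 1 of the 6 fits without an embryo. Zfp930, Zfp942, Zfp943 and Zfp934 were at 0.56 to 0.64 as deposited, with adjusted p between 0.00440 and 0.0150. After correction these 4 were at -0.18 to 0.01, with adjusted p of at least 0.233. The call of Zfp934 as deposited was lost in 2 of the 6 fits without an embryo, and its exons are among the less unique (66.8%).

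Zfp951 and Zfp945 passed with the trend removed and are named here after their values were seen. Zfp951, with 10 fingers, had 575.2, 817.5 and 715.1 normalized counts in WT and 1053, 1199 and 1369 in the mutants, without overlap. Its log2 fold change was 0.78 ± 0.16 (adjusted p = 0.00633) as deposited and 0.48 ± 0.15 (adjusted p = 0.0453) with the trend removed, but 0.44 (adjusted p = 0.0521) with GC content alone removed. Zfp945 has the most fingers (18). It had 1726, 1795 and 1852 normalized counts in WT and 2199, 2333 and 2685 in the mutants. It rose by 0.43 ± 0.10 (adjusted p = 0.0109) as deposited. In the corrected fit it fell by 0.30 ± 0.07 (adjusted p = 0.0162), so its direction depends on the correction. In the corrected fit the call of Zfp951 remained in 1 and that of Zfp945 in 4 of the 6 fits without an embryo.

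By position, the 7 genes of the chromosome 17 group had log2 fold changes from 0.43 to 0.85 in the counts as deposited, with a median of 0.56. Of these, 5 rose, and Zfp947 and Zfp948 did not pass. After correction the group ranged from -0.30 to 0.12, and Zfp945 alone passed the threshold. Zfp942 and Zfp943 of this group are transcribed away from each other from neighbouring starts, and their promoter windows, which overlap, held 20 and 21 CpG. Their uncorrected changes were 0.58 ± 0.12 and 0.56 ± 0.13. The 3 genes of the chromosome 8 group ranged from 0.57 to 0.59 as deposited, where Zfp930 and Zfp963 rose and Zfp964 did not pass, and from 0.01 to 0.24 with none passing after correction by edgeR, also at an unadjusted p below 0.05. The pair on chromosome 13, Zfp935 and Zfp934, rose at 0.62 and 0.64, and was at 0.03 and -0.06 after correction. Of the members alone on their stretch that have not been described, Zfp932, Zfp937, Zfp938, Zfp958 and Zfp960 rose by 0.42 to 0.62 as deposited. Zfp939, Zfp949 and Zfp953 did not pass. None of these 8 passed with the trend removed, where they lay between -0.23 and 0.08 (edgeR, unadjusted p included).

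Genes of the cofactors through which KRAB zinc finger proteins act were examined beside the series. TRIM28, the corepressor that the KRAB domain recruits, had 298.1 ± 7.9 FPKM for its gene in WT and 227.1 ± 12.4 in mutants (SD, n = 3). Trim28 fell by 0.39 ± 0.07 on the log2 scale in the counts as deposited (adjusted p = 0.00334) and was at 0.12 ± 0.05 with the trend removed (adjusted p = 0.0983). Setdb1, which encodes the H3K9 methyltransferase, was at 30.9 ± 1.5 and 31.6 ± 0.4 FPKM, a log2 fold change of 0.03 ± 0.07 (adjusted p = 0.741). Of the 22 cofactor and H3K9 silencing genes, all tested, 9 were higher (40.9%) and 3 lower (13.6%) as deposited, beside 17.6% and 18.1% of all tested genes, with a median of 0.17. After correction 6 were higher (27.3%) and 5 lower (22.7%), beside 11% and 15.5% of all tested genes, with a median of 0.10. The genes past the threshold in the same direction in both fits were Hdac2, Morc2a, Morc3 and Uhrf1 (higher) and Hdac1 and Daxx (lower). Uhrf1, whose product brings DNMT1 to replicated DNA, changed most among them with the trend removed, at 0.75 ± 0.07 (adjusted p = 0.000639). Hdac2 and Hdac1, deacetylases of the NuRD complex that TRIM28 binds, were at 0.56 ± 0.09 (adjusted p = 0.00351) and -0.47 ± 0.06 (adjusted p = 0.00154) in that fit. As deposited, Atf7ip, Mphosph8, Smarcad1, Sumo2 and Atrx also rose, by 0.32 to 0.72. After correction, Chd3 and Dnmt1 were higher. Cbx1, Cbx3 and Cbx5, which encode heterochromatin proteins, were lower in that fit, at -0.23 to -0.15 on the log2 scale. In the counts as deposited, Cbx1, Cbx3 and Cbx5 were at 0.10 to 0.15, Chd3 at -0.15 and Dnmt1 at 0.05, none past the threshold. The direction of all but Dnmt1 thus depends on the correction. The corrected calls of Chd3 (edgeR, adjusted p = 0.0495) and Cbx5 (adjusted p = 0.0486) were close to the threshold.

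Values of zinc finger genes outside the series also moved with the correction. Among 8 KRAB zinc finger genes of known function outside the series, whose median exonic GC was 44.4%, 4 rose as deposited, beside 17.6% of all tested genes and 39.8% of those in the lowest GC bin. Their median was 0.33, and none passed with the trend removed (edgeR, 0 also at an unadjusted p below 0.05), with a median of 0.01. Those that rose were Zfp57 and Zfp445, which protect imprints, Zfp708, and Rsl1, a regulator of sex-biased liver genes. The 290 tested genes among the other numbered Zfp genes had more GC in their exons, with a median of 46.4%, and a smaller median change of 0.26 as deposited. In that set 37.2% were higher and 8.62% lower, beside 64.5% and 3.23% in the Zfp900 series. With the trend removed their median was 0.04, with 13.8% higher and 7.59% lower, beside 9.68% and 12.9%. The difference between these lists was not tested.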

How the data were processed

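RNA was measured in E8.5 whole embryos, 3 WT and 3 Dnmt3b-/-, grouped by the genotype in the labels. Per the labels and the study's methods, total RNA was depleted of ribosomal RNA, stranded paired-end libraries were aligned to mm10 with TopHat2 2.0.12, and the authors deposited raw read counts per RefSeq gene from HTSeq 0.6.0. The strand setting of the counting is not given in the sources used here. The authors also deposited the same counts divided by DESeq2 1.4.5 size factors, a normalized signal that was used only to read those factors. The deposited fold changes and adjusted p-values were not used.

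Here the raw counts were fitted with edgeR 4.0.16 (R 4.3.3) by the quasi-likelihood F test with TMM factors, on the 15114 genes averaging at least 10 counts per library. Benjamini-Hochberg adjustment was over all of them. Calls required an adjusted p under 0.05 together with a fold over 2. The SE is that implied by the F statistic. Normalized counts are raw counts scaled to the mean effective library size, and FPKM values were computed from the counts and merged RefSeq exon lengths. The second fit had an offset for each gene and library, made from natural splines (5 df) of GC content and of the log2 of merged exon length, taken from a RefSeq annotation of GRCm38 that held 99.1% of the 24065 genes. Genes without an annotation were not adjusted. The scripts were tested on simulated counts. DESeq2 1.42.0 and limma 3.58.1 were alternatives. Members given in full are those called in either fit, the 5 highest and 5 lowest fold changes and the 5 highest mean FPKM, and the other members by group. Of the cofactor list, genes past an adjusted p of 0.05, Trim28 and Setdb1 are named. The members, gene lists and tests were chosen with earlier results of these data known. Total counts per library were 41489332 to 58470286. Embryos are separate animals, so the p-values measure the spread between embryos.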

Additional observations from a re-analysis of the deposited data

How the results depend on the processing

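With another scaling, DESeq2 or limma in place of edgeR, or another filter, the counts of members higher or lower stayed within 1.5 times those reported and the median stayed between 0.49 and 0.59. Calls went from 3 higher and 0 lower to 11 and 1 with a fold above 1.5. Leaving out 1 embryo gave 2 to 4 called higher, 15 to 21 higher and 0 to 1 lower at an adjusted p below 0.05 (0 without WT replicate 3, Dnmt3b-/- replicate 1 or Dnmt3b-/- replicate 2), and a median of 0.50 to 0.62. Without WT replicate 2, the library rich in yolk sac markers, 4 were called higher and 21 were higher.

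The correction for GC content changed most values. It left 1 called higher, 1 called lower, 3 higher and 4 lower, whether GC and length, GC alone or a trend estimated without Zfp genes was removed, with medians of -0.015, -0.0019 and -0.018. The members were not all the same ones, since with GC alone removed Zfp931 passed (0.63) and Zfp951 did not (0.44). In the same 3 fits Zfp942 was at -0.11, -0.035 and -0.11, Zfp943 at -0.18, -0.089 and -0.18, Zfp945 at -0.30, -0.27 and -0.30, Zfp952 at -0.45, -0.41 and -0.45, and Zfp934 at -0.060, 0.024 and -0.063. Zfp952, at 0.00 in the report, was at -0.074 with total counts and -0.0079 with no filter, and ranged from -0.049 to 0.068 with an embryo left out. In the corrected fit, leaving out 1 embryo gave 0 to 1 called higher (0 without Dnmt3b-/- replicate 3), 1 called lower, 1 to 3 higher, 1 to 3 lower and a median of -0.04 to 0.02. Zfp930 then ranged from -0.056 to 0.091 and Zfp934 from -0.18 to 0.052. The counts at an adjusted p below 0.05 were lowest, at 1 higher and 1 lower, without WT replicate 1 and without Dnmt3b-/- replicate 2.

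Same-numbered embryos deviated from their group means with correlations of -0.049, -0.147 and -0.013, and no embryo correlated best with its own number. Because deviations within a group offset each other, these values cannot settle whether same-numbered embryos came from the same litter. With the replicate number as a block, 2 members were called higher (Zfp936 was lost), 18 were higher and the median was 0.57. The block with the correction gave 1 called higher, 1 called lower, 2 higher, 1 lower and a median of 0.0017, with Zfp934 at -0.053, Zfp942 at -0.11, Zfp943 at -0.18, Zfp945 at -0.30 and Zfp952 at -0.45. Depth limits the members of few reads, above all Zfp936.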
